A study of Rattus norvegicus with 14 samples.

Results

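Serine, glycine, folate and proline enzymes are described here by the transcripts of 10 genes, of 14506 genes measured in rat liver. The genes are Phgdh, Psat1 and Psph for serine synthesis, Shmt1 and Shmt2 for the exchange of serine and glycine, Mthfd1 and Aldh1l1 for folate-bound carbon, Gldc for glycine cleavage, and Aldh18a1 and Pycr1 for proline synthesis. All 10 were measured, each by a probe whose platform annotation gives that symbol alone, and the brightest such probe was used where there were several. The genes were chosen by their measured log2 differences between the diets: several were higher with a rosemary extract while Gldc was lower. These differences are therefore given as a description, without p-values, and the number that passed the test over all genes is printed once, with nothing read from it.

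Livers came from 14 lean female Zucker rats of genotype fa/+, which carry 1 copy of the leptin receptor mutation fa and do not become obese, aged about 15 weeks per the series title. For 64 days, 7 rats ate a standard diet (control) and 7 ate that diet with a rosemary extract added (extract), of which carnosic acid, a phenolic diterpene, made up 40%. The sample labels put the extract at 0.05% of the diet by weight and the series title at 0.5%; the former is used here. Each array held the total liver RNA of 1 rat, so the number of rats limits the precision, and in whole liver fewer cells of a type and less RNA per cell cannot be told apart.

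Serine is made from the glycolytic intermediate phosphoglycerate in a short chain of reactions, and serine hydroxymethyltransferases then turn it into glycine while handing a carbon unit to tetrahydrofolate. Folate enzymes pass that unit on to purines, thymidylate and methionine, or oxidise it and keep the electrons as NADPH. In liver mitochondria the glycine cleavage system breaks glycine down, and proline is built from glutamate or ornithine through a shared intermediate, pyrroline carboxylate. The transcription factor ATF4, which answers amino acid shortage, is known to induce several genes of serine and proline synthesis, and MYC and NRF2 have also been linked to serine and folate genes in growing cells.

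The deposited values are log2 RMA values, in which a step of 1 is a doubling of signal, and RMA compresses differences near background. The median of all probes in control rats was 5.10. Array medians over all probes lay between 5.02 and 5.15, and pairs of arrays correlated between 0.984 and 0.997 over genes. Control rat 1 and extract rat 4 had the lowest array weights in limma (0.41 and 0.46, against 0.69 to 2.05 in the other 12 arrays). All 8 hepatocyte markers had group means far above the median probe, for example albumin (Alb) at 13.76 and 13.73 in control and extract rats, and 0 of the 8 passed limma's test between diets. Their log2 differences were below 0 in 7 of 8 (median -0.06), and 1, haptoglobin (Hp, -0.20), had an unadjusted p under 0.05, as 14.8% of all genes did. Alb and Hp were named after their values were seen.

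The first enzymes of serine synthesis were higher with the extract, while the last was level. Phgdh, which oxidises phosphoglycerate and commits it to serine, ranged from 4.34 to 5.08 in control rats (median 4.69) and from 4.91 to 5.45 in extract rats (median 5.29). Its groups overlapped through control rat 1, the highest control rat at 5.08, whereas the other 6 control rats lay below every extract rat. The log2 difference was 0.54 ± 0.11 (SE, n = 7 rats per diet), or 1.46-fold, in a gene whose control level was below the median probe. Psat1, the aminotransferase of the next step, ranged from 7.52 to 8.04 in control rats (median 7.82) and from 8.14 to 8.77 in extract rats (median 8.42). No extract rat overlapped a control rat for Psat1, and the difference was 0.63 ± 0.10, or 1.54-fold. A second Psat1 probe near the median probe differed less, from 5.00 ± 0.44 to 5.18 ± 0.21 (SD, n = 7 each), and the mean of both probes gave a difference of 0.40. Psph, the phosphatase that releases serine, ranged from 7.16 to 7.63 in control rats and from 6.98 to 7.76 in extract rats, with medians of 7.39 and 7.42. Its difference of -0.00 ± 0.11 changed sign with the rat left out, from -0.06 to 0.07.

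**Figure D1:**
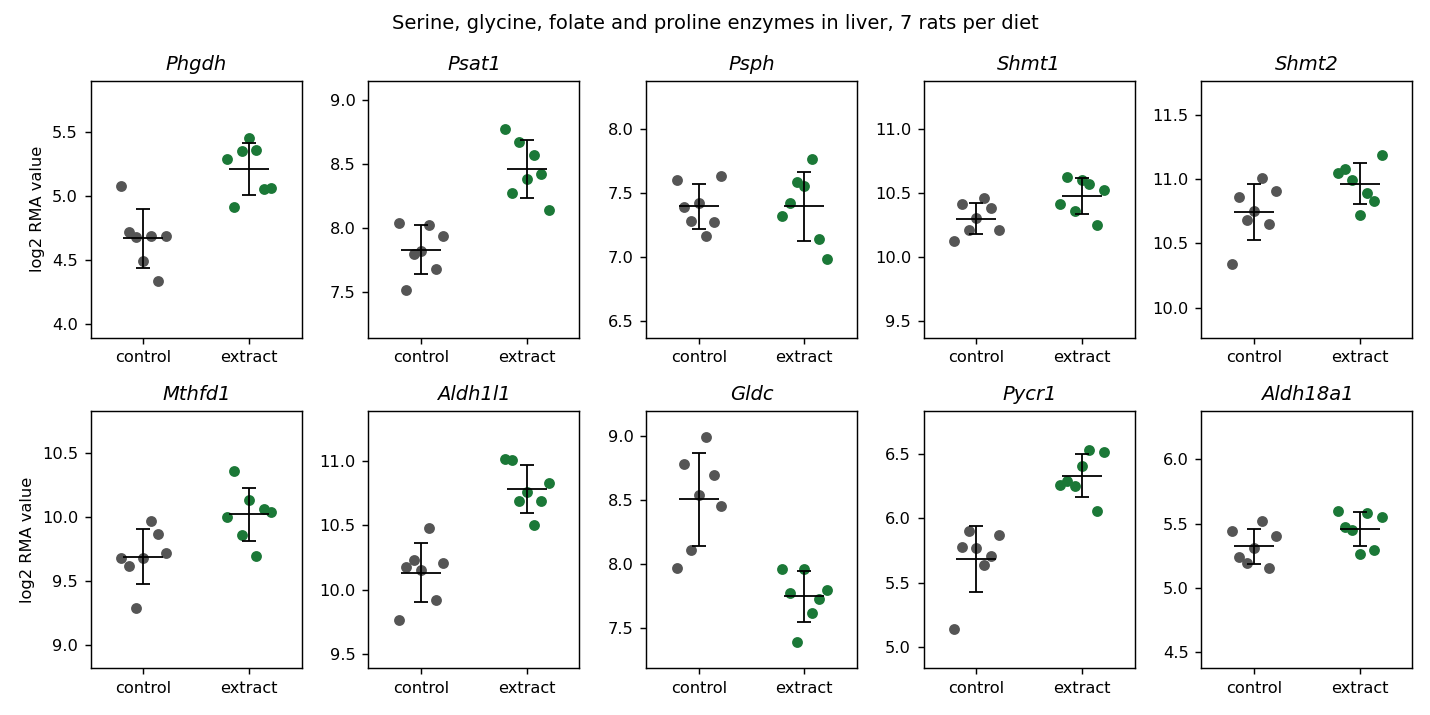
Log2 RMA values of the 10 enzymes, 1 point per rat, with the mean and SD of 7 rats per diet; each vertical axis spans 2 log2 units. Psat1, Aldh1l1 and Pycr1 show no overlap upward and Gldc none downward, and control rat 1 lies lowest for Pycr1 at 5.14.

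Both serine hydroxymethyltransferases differed little. Shmt1, the cytosolic enzyme, ranged from 10.12 to 10.46 in control rats (median 10.30) and from 10.25 to 10.62 in extract rats (median 10.52), with 4 extract rats above every control rat. Shmt2, the mitochondrial enzyme, ranged from 10.34 to 11.01 (median 10.75) and from 10.72 to 11.19 (median 10.99), with 3 extract rats above every control rat. The log2 differences were 0.18 ± 0.08 for Shmt1 and 0.22 ± 0.10 for Shmt2. Control rat 1 was the lowest rat for both, and without it the differences were 0.15 and 0.15.

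Of the folate enzymes, the one that oxidises formyl groups differed most. Aldh1l1, the cytosolic formyltetrahydrofolate dehydrogenase, which releases the carbon as carbon dioxide and yields NADPH, ranged from 9.76 to 10.48 in control rats (median 10.18) and from 10.50 to 11.02 in extract rats (median 10.76). The groups did not overlap, though the gap was narrow (10.48 against 10.50), and the difference was 0.65 ± 0.10, or 1.57-fold. Mthfd1, the cytosolic enzyme that interconverts formyl, methenyl and methylene tetrahydrofolate, ranged from 9.29 to 9.97 (median 9.68) and from 9.70 to 10.36 (median 10.04), so that 5 extract rats lay above every control rat. Its difference was 0.33 ± 0.10, or 1.26-fold, and a second, dimmer Mthfd1 probe went from 6.88 ± 0.38 to 7.15 ± 0.26 (SD, n = 7 each).

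Gldc, the decarboxylase of the mitochondrial glycine cleavage system, was the member that was clearly lower. It ranged from 7.97 to 8.99 in control rats (median 8.54) and from 7.39 to 7.96 in extract rats (median 7.77). The groups did not overlap, but the lowest control rat, rat 1, was next to extract rats 1 and 4, both at 7.96. The log2 difference was -0.76 ± 0.14, a ratio of 0.592, and -0.85 without control rat 1. Control rats were also more spread than extract rats (SD 0.36 and 0.20).

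In proline synthesis the last step differed and the first hardly did. Aldh18a1, the synthase that turns glutamate into the precursor of pyrroline carboxylate, ranged from 5.15 to 5.52 in control rats (median 5.31) and from 5.26 to 5.60 in extract rats (median 5.47), with a difference of 0.14 ± 0.08 at a level near the median probe. Pycr1, the mitochondrial reductase that makes proline from pyrroline carboxylate, ranged from 5.14 to 5.90 (median 5.77) and from 6.06 to 6.53 (median 6.29). No extract rat overlapped a control rat for Pycr1. The difference was 0.64 ± 0.11, or 1.56-fold, and 0.55 without control rat 1, which stood apart at 5.14 from the next control rat at 5.64.

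Counted together, 8 of the 10 log2 differences were above 0, where 49.7% of all genes were, and the median was 0.28 against -0.00 over all genes. Those of 4 members (Phgdh, Psat1, Aldh1l1 and Pycr1) were higher and that of Gldc lower at limma's Benjamini-Hochberg adjusted p of 0.05, where 2.00% of all genes were called higher and 1.15% lower (167 genes, but 292 once control rat 1 was left out). With the mean of both its probes Psat1 differed by 0.40 and just missed that threshold. Groups did not overlap upward in 3 members (background 1.09%) and downward in 1 (background 0.455%). Since this contrast chose the members, nothing is read from these counts. Under the alternatives run, 9 of the 10 differences kept their sign each time, Psph being the exception.

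The start regions of the genes were looked at because several members differed in the same direction between diets, which is how they were chosen. RefSeq's GRCr8 promoter table matched 8 of the 10 members (all but Mthfd1 and Aldh18a1). In the 250 bases before each annotated start, both strands were searched for 4 motifs: TGATGNAAT (a form of the C/EBP-ATF response element that ATF4 binds), TGACNNNGC (the core of the antioxidant response element that NRF2 binds), CACGTG (an E-box, which MYC and other factors bind) and CCAAT (the CCAAT box). The motifs were chosen after the sequences had been seen, do not overlap one another in the members' windows, and a match describes letters, not binding. Of all 33469 promoters in the table, 0.944% held the first, 10.1% the second, 5.59% the third and 34.0% the fourth. Pycr1 is shown for its match to the first motif, Shmt1 for its pair of E-boxes, and Psat1 and Gldc as members that differed in opposite directions; all run 5′ to 3′ on the gene's strand, with matches on either strand in capitals.
Pycr1, chr10:106420813-106421062, - strand: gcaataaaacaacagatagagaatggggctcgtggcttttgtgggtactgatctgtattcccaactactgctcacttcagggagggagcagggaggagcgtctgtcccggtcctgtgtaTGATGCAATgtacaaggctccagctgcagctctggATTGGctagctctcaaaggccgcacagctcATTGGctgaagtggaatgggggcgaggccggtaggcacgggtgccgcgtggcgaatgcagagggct
Shmt1, chr10:45990342-45990591, - strand: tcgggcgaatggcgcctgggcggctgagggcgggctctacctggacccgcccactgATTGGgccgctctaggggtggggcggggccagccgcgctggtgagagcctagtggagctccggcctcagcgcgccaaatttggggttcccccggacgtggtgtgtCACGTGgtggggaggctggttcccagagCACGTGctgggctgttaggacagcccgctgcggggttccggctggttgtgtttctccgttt
Psat1, chr1:222645409-222645658, - strand: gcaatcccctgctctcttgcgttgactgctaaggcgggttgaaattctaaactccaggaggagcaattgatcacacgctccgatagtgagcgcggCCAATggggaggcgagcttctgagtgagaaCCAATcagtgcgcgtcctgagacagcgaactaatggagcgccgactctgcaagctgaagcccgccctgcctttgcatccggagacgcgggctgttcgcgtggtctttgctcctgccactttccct
Gldc, chr1:237375605-237375854, - strand: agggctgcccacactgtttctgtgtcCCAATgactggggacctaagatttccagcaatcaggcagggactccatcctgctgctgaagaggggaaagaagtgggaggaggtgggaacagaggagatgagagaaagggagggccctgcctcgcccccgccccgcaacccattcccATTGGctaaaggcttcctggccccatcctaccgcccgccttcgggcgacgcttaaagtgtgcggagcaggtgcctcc

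Pycr1 alone of the 8 windows held TGATGNAAT, as TGATGCAAT from base -131 to -123, counted back from the annotated start. Shmt1 alone held CACGTG, at -89 to -84 and at -61 to -56. The antioxidant core was in 0 of the 8 windows, and CCAAT in 6 of 8 (all but Psph and Shmt2). The same search found 0 antioxidant cores for Nqo1, an NRF2 target, and 0 matches to TGATGNAAT for Trib3, an ATF4 target. An absent match in so short a window therefore does not show that a gene lacks such a site. Psat1 and Gldc, which differed in opposite directions, each held the CCAAT box and none of the other motifs.

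The next comparison asked whether other genes of the same pathways moved too. Outside the 10 members, 55 genes of serine, glycine, folate, methionine and proline metabolism were measured, and 1 rose, 2 fell and 52 did not pass limma's test with Benjamini-Hochberg adjustment over all 14506 genes, in which 3.15% of genes were called. An unadjusted p under 0.05 was found for 14 of the 55, against 14.8% of all genes. Their median log2 difference was 0.02. The 3 that passed were Ftcd, Folr2 and Oat.

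Among 16 further folate genes, Ftcd rose. It encodes a liver enzyme that passes the formimino group of histidine breakdown to tetrahydrofolate. Its values ranged from 9.35 to 9.82 in control rats (median 9.62) and from 9.85 to 10.43 in extract rats (median 9.99), with no overlap. The difference was 0.44 ± 0.09 (limma adjusted p = 0.0127), and the call was held under all 21 alternatives (adjusted p from 0.0059 to 0.034). Folr2, a folate receptor carried by resident macrophages, fell, from a range of 8.92 to 9.39 (median 9.07) to one of 8.33 to 8.92 (median 8.86), with no overlap before rounding. The difference was -0.38 ± 0.10 (limma adjusted p = 0.0362). Leaving out control rat 2, 3, 4, 6 or 7, or else extract rat 1 or 2, ended this call, as did median centring and the rat number as a block (adjusted p from 0.051 to 0.086). The mean level of 12 Kupffer cell and macrophage markers moved with it, from 8.79 to 9.09 in control rats and from 8.42 to 8.74 in extract rats. All 12 log2 differences were below 0 (median -0.28), and 2 markers passed limma's test: Marco (-0.73, adjusted p = 0.00586) and Vsig4 (-0.51, adjusted p = 0.0243; 0.054 and 0.062 without extract rat 1 or 2). Of the 12 markers, 10 had an unadjusted p under 0.05 in limma, where 14.8% of all genes did. The part of Kupffer cells and macrophages in the fall of Folr2 was not tested.

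The other 14 folate genes did not pass, and the median of all 16 was 0.05. With Ftcd and Folr2, 7 of the 16 had an unadjusted p under 0.05 in limma, where 14.8% of all genes did. The rest of these 7 are named here, after their values were seen. Aldh1l2, the mitochondrial relative of Aldh1l1, had a log2 difference of -0.38 ± 0.16 (limma adjusted p = 0.256), against 0.65 for Aldh1l1. Mthfd2 and Mthfd1l, which handle methylene and formyl groups in mitochondria, had differences of 0.21 ± 0.09 and 0.22 ± 0.09 (limma adjusted p = 0.31 and 0.233). Gart and Atic, which use formyl tetrahydrofolate in purine synthesis, had 0.25 ± 0.09 and 0.30 ± 0.11 (limma adjusted p = 0.195 and 0.196). Mthfd2l and Mtfmt, for example, were not among the 7, with -0.07 ± 0.09 and 0.06 ± 0.07 (limma adjusted p = 0.775 and 0.78).

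The partners of Gldc in the glycine cleavage system did not pass. The log2 differences of Amt, Gcsh and Dld, the other proteins of the complex, were 0.14 ± 0.10, 0.08 ± 0.07 and 0.24 ± 0.11 (limma adjusted p = 0.588, 0.718 and 0.302). In the glycine list, 0 of 13 genes passed limma's adjusted threshold and 3 had an unadjusted p under 0.05, with a median of 0.08. Over all genes, the shares were 3.15% and 14.8%. Of these 3 glycine genes, Dld and Glyat were above 0 and Gatm below. Gatm, which starts creatine synthesis from glycine and arginine, had the smallest p (-0.32 ± 0.10, limma adjusted p = 0.125). Serine-using genes numbered 7, of which 0 passed and 0 had an unadjusted p under 0.05 in limma (median 0.02). Sds, the serine dehydratase, came first at 0.47 ± 0.31 (limma adjusted p = 0.531). In the methionine cycle 0 of 10 passed and 1 had an unadjusted p under 0.05 in limma (median 0.02); this was Mat2a, a methionine adenosyltransferase (0.18 ± 0.08, limma adjusted p = 0.265).

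**Figure D2:**
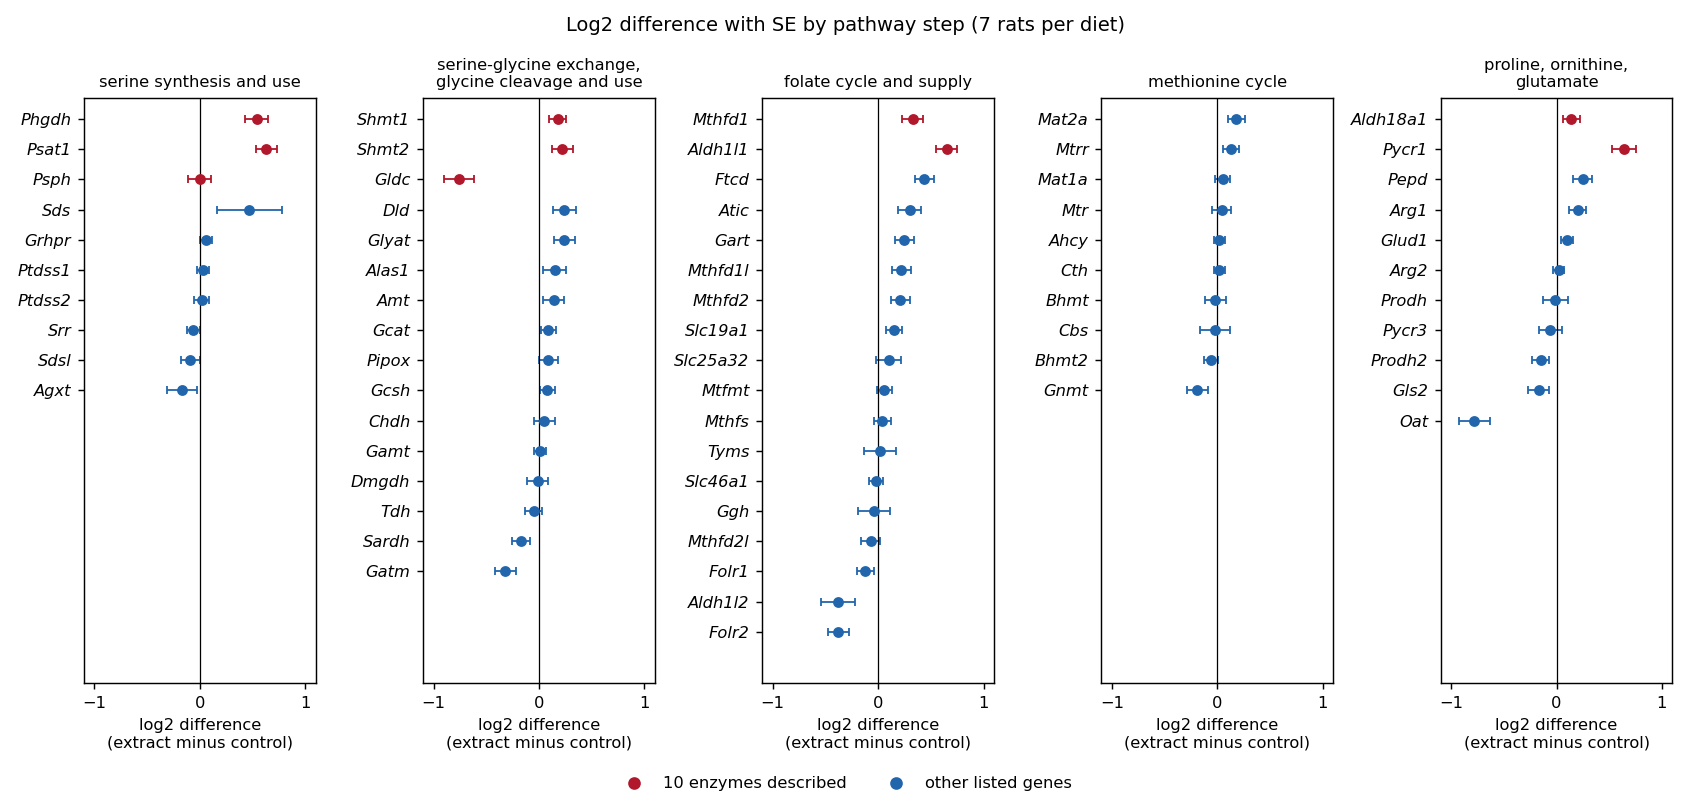
Log2 difference (extract minus control) with limma's SE for the 10 enzymes (red) and 55 other genes of the same pathways (blue), in 5 panels by pathway. Gldc at -0.76 and Oat at -0.78 lie farthest to the left, while Aldh1l1 at 0.65 and Pycr1 at 0.64 lie farthest to the right.

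On the proline side, Oat fell. This mitochondrial aminotransferase turns ornithine into the precursor of pyrroline carboxylate and is expressed around the central vein in liver. It ranged from 10.10 to 11.40 in control rats (median 10.54) and from 9.52 to 10.11 in extract rats (median 9.79), with 5 extract rats below every control rat. The difference was -0.78 ± 0.15 (limma adjusted p = 0.00697), and the call was held under all 21 alternatives (adjusted p from 0.0024 to 0.033). Of 9 genes in this list the other 8 did not pass, 3 of the 9 had an unadjusted p under 0.05 in limma, and the median was -0.01. Besides Oat these were Arg1 and Pepd, both above 0 (0.20 ± 0.08 and 0.25 ± 0.09, limma adjusted p = 0.211 and 0.153). Over all genes, 3.15% were called and 14.8% had an unadjusted p under 0.05. Pycr3, a cytosolic relative of Pycr1, differed by -0.06 ± 0.11, and Prodh, the first enzyme of proline breakdown, by -0.01 ± 0.12. Lists for zones of the liver lobule showed few calls: 0 of 9 periportal genes passed in limma (2 had an unadjusted p under 0.05; median 0.08, with the glucose phosphatase G6pc1 first at 0.35, adjusted p = 0.132). That gene passed with array weights and without extract rat 5 (adjusted p = 0.043 and 0.019). Of 8 pericentral genes, Rhbg, an ammonium transporter, rose 3.58-fold (limma adjusted p = 2.71e-08; list median 0.12; 2 of 8 had an unadjusted p under 0.05, against 14.8% of all genes). The other of these 2 was Axin2, which was lower (-0.36 ± 0.16, limma adjusted p = 0.284). In the periportal list, the other gene with an unadjusted p under 0.05 was Hal, also lower (-0.29 ± 0.13, limma adjusted p = 0.313).

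Genes linked to ATF4 and to NRF2 were listed as well, without Trib3 and Nqo1, which are described with the correlations; no list of MYC targets was run. Over all genes, limma called 2.00% higher and 1.15% lower, and 14.8% had an unadjusted p under 0.05. Of 23 ATF4-linked genes, 2 rose, 1 fell and 20 did not pass (median 0.10), and 9 had an unadjusted p under 0.05 in limma. Of these 9, Asns, Gars1, Nars1, Slc3a2 and Slc7a11 were above 0, and Atf4, Atf5, Slc7a5 and Nupr1 below 0. Atf4 itself differed by -0.23 ± 0.07 (limma adjusted p = 0.0685). Slc3a2, the heavy chain of amino acid exchangers, rose from 10.20 ± 0.17 to 10.65 ± 0.23 (SD, n = 7 each; limma adjusted p = 0.0152). Its partner Slc7a11, the cystine transporter, rose from 3.64 ± 0.10 to 4.48 ± 0.69 (SD, n = 7 each; limma adjusted p = 0.048), below the median probe. Leaving out extract rat 4, 6 or 7 kept the call, and leaving out any control rat or extract rat 1, 2, 3 or 5 ended it (11 rats). Repeated quantile normalization, an intensity trend and the rat number as a block ended it too (adjusted p from 0.051 to 0.093 over these 14 settings). Nupr1, a small stress-induced chromatin protein, fell from 11.87 ± 0.21 to 11.39 ± 0.16 (SD, n = 7 each; limma adjusted p = 0.00709). Of 12 NRF2-linked genes, 9 rose and 3 did not pass (median 0.86), and 11 had an unadjusted p under 0.05 in limma. Those with the smallest p were Abcc3, an exporter of conjugates (3.92-fold), Gsr, glutathione reductase (1.79-fold), Me1, malic enzyme (2.34-fold), Gclc, which limits glutathione synthesis (1.84-fold), and Ugdh, which makes UDP-glucuronate (2.02-fold). Of the 12, 1 was below 0: Hmox1, with a log2 difference of -0.17 ± 0.11 (limma adjusted p = 0.504).

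Covariation across rats was examined within each diet, since a correlation over both diets would mix in the differences that chose the members. The partners were Nqo1, a quinone reductase and NRF2 target, Trib3, a pseudokinase and ATF4 target, and Myc. Nqo1 ranged from 7.86 to 8.51 in control rats (median 8.11) and had a lowest value of 9.32 and a median of 9.68 in extract rats (9.70 ± 0.21, SD, n = 7). Trib3 ranged from 4.75 to 5.49 (median 5.23) and from 5.44 to 6.16 (median 5.94), and Myc from 6.01 to 6.86 (median 6.55) and from 6.91 to 8.10 (median 7.70). No rat overlapped the other diet for Nqo1 or Myc, while Trib3 overlapped slightly.

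Within the diets, no partner had correlations of 1 sign with all 10 enzymes. With Nqo1, correlations had the same sign in both diets for 6 of 10 members (2 positive, 4 negative), with medians of -0.28 in control and 0.15 in extract rats. Among the 4 negative ones, r in extract rats was -0.00 for Psat1 and Aldh1l1 and -0.01 for Mthfd1, so their shared sign says little. Shmt2 was negative in both diets (-0.47 and -0.19). With Trib3 the sign was shared by 5 of 10 (4 positive, 1 negative; medians 0.32 and -0.13), and with Myc by 4 of 10 (2 positive, 2 negative; medians 0.19 and -0.18). The shared sign of Pycr1 with Trib3 likewise rested on an r of 0.01 in extract rats. A limma fit of each gene on the partner's level, with diet in the model, was run over all 14505 other genes. It called 0 genes for Nqo1, Trib3 or Myc (0% called), and 11.1%, 5.08% and 2.25% of genes had an unadjusted p under 0.05. Of the members, 1, 0 and 1 of 10 did.

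Phgdh had the smallest p of the members on Nqo1, with a slope of 0.45 ± 0.21 log2 units per log2 unit of Nqo1 (limma adjusted p = 0.446). Its correlation with Nqo1 was 0.52 in control and 0.54 in extract rats (exact permutation, adjusted p = 0.87 in both, n = 7 each). Without the 2 rats farthest from the median of Nqo1, r was 0.71 and 0.10. Mthfd1 had a slope of -0.40 ± 0.21 on Nqo1 (limma adjusted p = 0.477). On Trib3 the first member was Shmt2 (0.31 ± 0.18, limma adjusted p = 0.869), and on Myc it was Shmt1 (-0.22 ± 0.10, limma unadjusted p = 0.0336, adjusted p = 1). None of these slopes passed in any alternative.

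**Figure D3:**
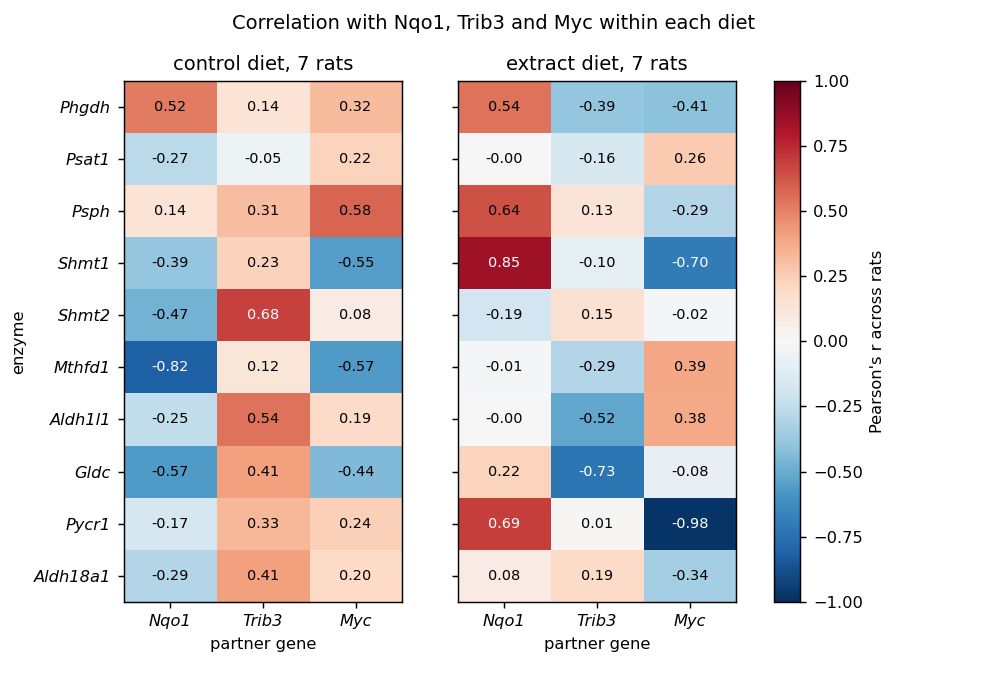
Pearson's r of each enzyme with Nqo1, Trib3 and Myc across 7 rats, shown for the control diet (left) and the extract diet (right) on a colour scale from -1 to 1. Sign is shared between the panels by 6, 5 and 4 of 10 enzymes for Nqo1, Trib3 and Myc. These counts include values near 0, such as Psat1, Aldh1l1 and Mthfd1 with Nqo1 in extract rats (-0.00, -0.00 and -0.01). Mthfd1 with Nqo1 in control rats (-0.82) and Pycr1 with Myc in extract rats (-0.98) are among the darkest.

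Over the 60 relations of 10 members, 3 partners and 2 diets, 3 had an exact permutation p under 0.05 and 2 passed Benjamini-Hochberg adjustment. The first was Pycr1 with Myc in extract rats, which ran opposite ways: r was -0.98 (exact permutation p = 0.00159, adjusted p = 0.0476, n = 7) and rho -0.86 (exact permutation p = 0.0238, adjusted p = 0.576). Without the 2 rats farthest from the median of Myc, r was -0.95, and without any 1 rat it lay between -0.99 and -0.97. Extract rat 6 had the highest Myc and the lowest Pycr1, and extract rats 5 and 7 the lowest Myc and the highest Pycr1. In control rats r was 0.24 (exact permutation p = 0.591, n = 7), and the difference between the diets was not tested. The second was Mthfd1 with Nqo1 in control rats, with r of -0.82 (exact permutation p = 0.000595, adjusted p = 0.0357, n = 7) and rho of -0.96 (exact permutation p = 0.00278, adjusted p = 0.167). Without the 2 rats farthest from the median of Nqo1 r was -0.68, and in extract rats it was -0.01 (exact permutation p = 0.979, n = 7). Leaving out control rat 3 alone gave an r of -0.77 with an exact permutation p of 0.0708 (n = 6), the largest of the 7. The relation that did not pass adjustment was Shmt1 with Nqo1 in extract rats, with r of 0.85 (exact permutation p = 0.00913, adjusted p = 0.183, n = 7) and rho of 0.79 (exact permutation p = 0.048, adjusted p = 0.576). Without the 2 rats farthest from the median of Nqo1 r was 0.64, and in control rats it was -0.39 (exact permutation p = 0.364, n = 7). Neither of the 2 that passed did so as a rank correlation, after repeated quantile normalization, after median centring or with the mean of all probes.

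Among the members themselves, none of 90 relations (45 pairs in 2 diets) passed adjustment, and 4 had an exact permutation p under 0.05. The pair with the smallest p was Shmt1 and Gldc in control rats, a cytosolic and a mitochondrial enzyme that both act on glycine. In those rats r was 0.96 (exact permutation p = 0.000794, adjusted p = 0.0714, n = 7) and rho 0.96 (exact permutation p = 0.00278, adjusted p = 0.25). It was 0.88 without the 2 rats farthest from the median of Gldc and between 0.92 and 0.99 without any 1 rat. Control rats 5 and 2 were highest in both genes and control rat 1 lowest in both. In extract rats r was 0.30 (exact permutation p = 0.523, n = 7). So the pair went the same way among control rats, while between the diets Shmt1 differed by 0.18 and Gldc by -0.76. The other 3 were Shmt2 with Aldh1l1 (r = 0.90), Psat1 with Aldh18a1 (0.81) and Shmt2 with Gldc (0.78), all in control rats. The values for Shmt2 fell to 0.56 and 0.24 without the 2 rats farthest from the median of the other gene. Over the 45 pairs, 19 correlated positively and 13 negatively in both diets, and 13 had opposite signs. Phgdh and Psat1, successive steps of serine synthesis, correlated at 0.50 in control and 0.60 in extract rats (exact permutation, adjusted p = 0.701 in both, n = 7 each).

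**Figure D4:**
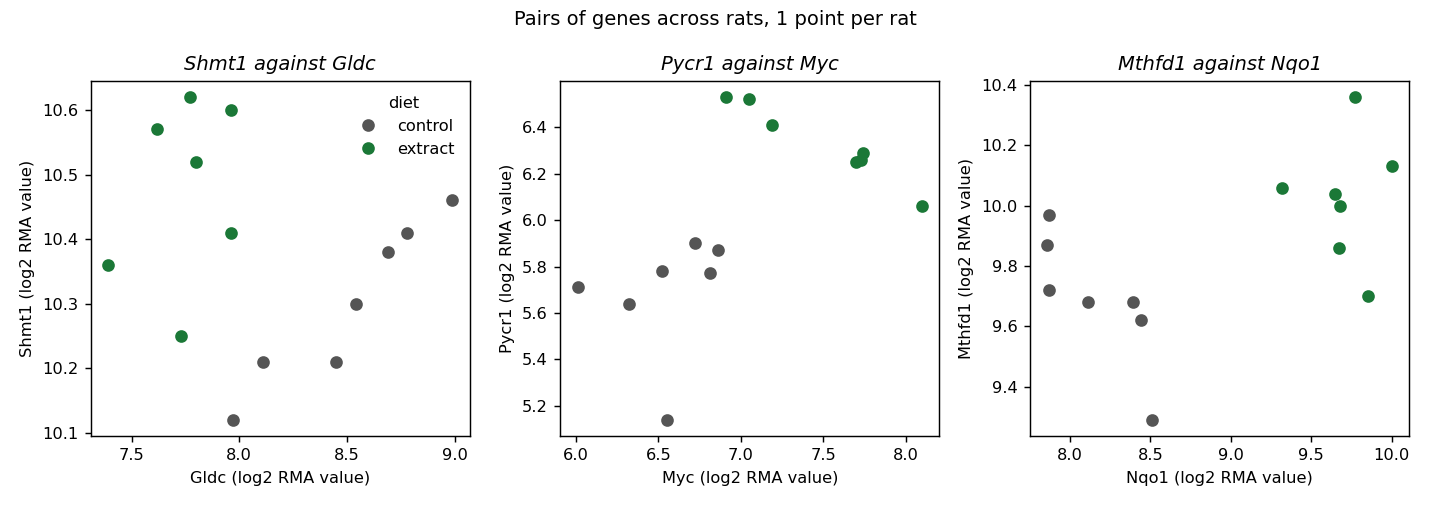
Log2 RMA values of Shmt1 against Gldc, Pycr1 against Myc and Mthfd1 against Nqo1, 1 point per rat, control rats in grey and extract rats in green. Control rats line up upward in the first panel (r = 0.96), extract rats downward in the second (r = -0.98) and control rats downward in the third (r = -0.82); in the other diet r was 0.30, 0.24 and -0.01.

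For each member, the gene outside the set with the most similar pattern was found from values centred on each diet's mean, over 14 arrays and as a description. Gldc was nearest to Med12l (r = 0.90; 0.88 in control and 0.95 in extract rats), a gene that was itself lower with the extract, with a log2 difference of -0.66. Shmt2 was nearest to Srp68 (r = 0.98), Psph to Rras2 (0.93), and Phgdh to Slc7a6 (0.91). Aldh1l1 was nearest to Tfeb (0.91), Pycr1 to Gldn (0.91) and Shmt1 to Dpys (0.90). Mthfd1 was nearest to Xpc (0.85), Aldh18a1 to Dph2 (0.85) and Psat1 to Rbfox1 (0.84). Between diets these 9 genes differed by -0.12 to 0.04 on the log2 scale. Shmt2 had many near neighbours, since 0.1% of all genes correlated with it at 0.95 or more, against 0.72 for Aldh18a1. For the remaining members this cut lay between 0.74 (Psat1) and 0.86 (Psph). Gldn, Slc7a6 and Rbfox1 had control means of 3.40, 4.50 and 5.00, below the median probe.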

How the data were processed

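Liver RNA from each of 14 rats went onto its own Affymetrix array after sense-strand labelling of whole transcripts, as the labels' protocols state. The authors deposited log2 values for 29215 probes. The submitters' processing notes name RMA and Affymetrix Expression Console 1.1.2; the options and a genome build are not given in the sources used here. Batches and scan dates are likewise not given there.

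GEO's platform annotation gave exactly 1 symbol for 15310 probes, several for 323, and left 13582 unnamed here. The brightest probe of each gene was used (527 genes had more than 1), giving 14506 genes, with no filter on dim probes. Of the 15310 probes, 15279 had their Entrez identifier in NCBI's GRCr8 gene table, which changed 0 symbols.

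The diets were compared with limma 3.58.1 in R 4.3.3 (lmFit, eBayes, two-sided), Benjamini-Hochberg adjusted over all genes at 0.05; ± after a difference or slope is limma's standard error. Slopes came from limma with diet and the partner's level. Correlations within a diet used two-sided exact permutation over all pairings (Python 3.11.15). In simulated data on 14506 genes, limma recovered 85.6% of genes changed by 0.5 and 99.6% of those changed by 1 between diets, with 4.61% false calls, and 52.8% of slopes of 1 on Nqo1. The simulated noise was independent between genes and equal across arrays, unlike the measured data, so these rates need not hold there. Of each pathway list the text names up to 5 genes that passed, those with the smallest p, and where none passed the gene with the smallest p; others, marker genes included, were named after their values were seen. Members, lists and motifs were chosen with earlier results of these data known. Lists held 122 pathway entries (107 measured) and 10 sets of cell type markers. Figures were drawn with matplotlib 3.10.9.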

Additional observations from a re-analysis of the deposited data

Results flagged for a closer look

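Pycr1 in control rat 1 (5.14) lay apart from the other 6 control rats (5.64 to 5.90): the gap to the nearest rat was 0.652 of the group's range, above Dixon's critical value for 7 samples. It was 1 of 26 groups of 7 rats examined (10 members and 3 partners in 2 diets), and chance flags about 1 in 20. The same rat was the lowest control rat for Shmt1, Shmt2, Aldh1l1 and Gldc and the highest for Phgdh and Psat1.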

How the results depend on the processing

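Of the genes called between diets, 457 in all, the count was 694 with array weights and ranged from 326 to 621 when each rat was left out. Leaving out control rat 1 gave 292 lower calls against 167, and median centring moved the share called higher from 63.5% to 74.2%. The count over the 9 pathway lists (16 of 107) ranged from 14 to 18 when each rat was left out and was 19 with array weights. Counts of genes associated with Nqo1 ranged from 0 to 4 (4 without extract rat 6), and with Trib3 and Myc were 0 each time. The 2 correlations of members with partners that passed became 0 as rank correlations and after repeated quantile normalization. They also became 0 after median centring and with the mean of all probes, and the cause was not tested. Without the 2 farthest rats they became 0 too, but 5 rats allow few small p-values, so that setting could hardly have kept a call. In it r was -0.95 for Pycr1 with Myc and -0.68 for Mthfd1 with Nqo1. Of 30 slopes, 18 changed sign under at least 1 alternative and 0 passed in any. That of Shmt2 on Trib3 was -0.05 with the rat number as a replicate block. Rats of the same number did not deviate together (r from -0.46 to 0.28), so the numbers are not taken as pairs; with the block 364 genes were called. Probes near background limit Phgdh, Aldh18a1, Pycr1 and Trib3, and slopes on Trib3 were not run under the filter on dim genes, which removes Trib3.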

Other observations

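Of the other marker lists, Prom1 fell among 6 bile duct markers (log2 difference -2.22), while the other 5 were above 0 and did not pass (median of the 6, 0.17; Krt7 had the smallest p of these, 0.23, limma adjusted p = 0.176). Pdgfrb fell among 8 stellate cell and fibroblast markers (-0.37; 5 of 8 below 0, median -0.14). These genes were named after their values were seen. The call of Pdgfrb was lost under 13 of 21 alternatives. limma called 0 of 4 endothelial markers, 0 of 7 T, B and NK cell markers, 0 of 5 neutrophil, 0 of 3 erythroid, 0 of 4 adipocyte and 0 of 6 pancreatic acinar markers, with 2, 1, 0, 0, 1 and 1 at an unadjusted p under 0.05, where 14.8% of all genes were. All 4 endothelial markers were below 0 (median -0.19).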
